A study of Homo sapiens with 56 samples.

Results

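The AP-1 and immediate early genes FOS, FOSB, FOSL1, FOSL2, JUN, JUNB, JUND, EGR1, IER2 and IER3 were followed in 7 established human colorectal cancer cell lines. They are 10 listed genes, matched by symbol to Ensembl gene identifiers, of 17536 genes measured in the lines. Each line had been treated with 10 mM 2-methylisocitrate (2-MiCit), an intermediate of the microbial methylcitrate cycle, or with water as the control, and 4 RNA libraries were sequenced in each of the 14 groups. HCT116, DLD1, LoVo and SW948 were quantified in one table of 32 libraries, and HT29, SK-CO-1 and SW1417 in a second table of 24 libraries. The series design names the lines of each table as a batch of their own. The comparisons ask which of these genes differ with 2-MiCit within a line, and how their levels differ between untreated lines. How long the cells were treated is not stated in the labels, and the growth conditions there name HCT116, DLD1, LoVo and SW948. Nothing in the labels says that libraries of a group are separate cultures, so each p-value measures the spread between libraries, which may be technical.

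AP-1 is a transcription factor made of pairs of bZIP proteins. JUN, JUNB and JUND can pair with each other or with FOS, FOSB, FOSL1 (FRA-1) and FOSL2 (FRA-2), whereas Fos proteins need a partner of another family. Immediate early genes such as FOS, EGR1 and IER2 are transcribed within minutes of a growth factor or stress signal without new protein synthesis, mainly through ERK and serum response factor, while JUN is also driven by the stress kinase JNK and by AP-1-type sites in its own promoter. In colorectal cancer cells, FOSL1 is known as a target of RAS and ERK signalling linked to invasion.

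RefSeq promoter windows (250 bases before to 50 after the start, GRCh38.p14) were matched for 8 of the 10 genes, the others being FOSL1 and IER3. The 250 bases upstream of JUN, the gene with most calls, and of FOS and EGR1, classical serum-response genes, are printed 5′ to 3′ on the coding strand. Capitals mark matches to the searched motifs on either strand: TGACATCA, TTACCTCA and TGACG in JUN, TGACG and TATAAA in FOS, and TGACG (also read as CGTCA) and the CArG box in EGR1. The JUN bases lie on the minus strand of chr1:58784048-58784297, the FOS bases on the plus strand of chr14:75278578-75278827 and the EGR1 bases on the plus strand of chr5:138465229-138465478.
JUN: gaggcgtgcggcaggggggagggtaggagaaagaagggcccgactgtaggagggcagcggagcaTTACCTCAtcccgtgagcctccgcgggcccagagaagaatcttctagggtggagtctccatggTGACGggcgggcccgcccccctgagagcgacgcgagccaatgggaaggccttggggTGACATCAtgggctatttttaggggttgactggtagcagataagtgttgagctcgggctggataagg
FOS: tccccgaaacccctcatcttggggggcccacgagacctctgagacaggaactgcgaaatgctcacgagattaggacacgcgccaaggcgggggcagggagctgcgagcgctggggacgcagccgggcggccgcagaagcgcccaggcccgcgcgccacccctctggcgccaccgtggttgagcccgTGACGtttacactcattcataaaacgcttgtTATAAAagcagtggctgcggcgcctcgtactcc
EGR1: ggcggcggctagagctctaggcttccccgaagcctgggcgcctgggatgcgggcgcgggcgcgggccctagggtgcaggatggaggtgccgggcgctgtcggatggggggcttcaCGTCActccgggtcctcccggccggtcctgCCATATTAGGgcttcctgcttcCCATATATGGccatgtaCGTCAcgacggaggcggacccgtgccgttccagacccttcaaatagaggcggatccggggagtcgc

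TGACATCA and TTACCTCA are letters of the classical AP-1-like sites of JUN. Their match in JUN was therefore known in advance and is no support for any result here. Of the 8 windows only that of JUN held them, and 2.61% and 0.715% of 35116 RefSeq windows of the same length did. The JUN matches begin 67 and 186 bases before its start. The CArG box, the core that serum response factor binds, was matched at 105 and 83 bases before the EGR1 start. The box was in none of the other 7 windows, that of FOS included, against 1.29% of all windows. Bases farther upstream were not searched for any motif, so a window without a match does not show that FOS or another gene lacks the site. TGACG, the half-site of the cyclic AMP response element, was present in 8 of 8 windows, against 24.6% of all, and its FOS match begins 64 bases before the start. TATAAA was found in FOS, FOSB and JUNB, against 11.5% of all. The full element TGACGTCA, which overlaps TGACG, was found in JUND alone (1.85% of all), the AP-1 site TGANTCA in FOSL2 alone, after its start (7.71% of all), and GCGGGGGCG, bound by EGR1, in none (5.07% of all).

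The libraries of the second table were the deeper ones, with 29.1 to 45.4 M counts each, and those of the first had 13.8 to 19.4 M. The summed level of 10 colon epithelial markers was between 4519 and 16040 CPM (normalised read counts relative to the library total) in every library. KRT8 and KRT18 reached the highest single values, although in SW948 controls EPCAM averaged 1571 CPM and KRT18 869 CPM. Fibroblast markers summed to 0.916 to 22.1, leukocyte markers to 3.37 to 26.2, mainly CD68, and endothelial markers to 0 to 2.24 CPM. No other detected leukocyte marker passed 2.23 CPM in any library. Libraries of the first table differed in a trend of level with transcript length. Its slope was -0.31 (log2 per log2 length) in DLD1 control replicate 1 and -0.24 in SW948 2-MiCit replicate 2, which stood apart from a range of -0.13 to 0.15 in the other 30 libraries, and from -0.02 to 0.03 in the second table. In that DLD1 control JUNB (1820 bases) and IER2 (2934 bases) were high, at 102 and 159 CPM, against 63.5 to 65.5 and 112 to 116 CPM in the other 3 controls, while FOSL1 (1669 bases) was lowest, at 93.4 CPM against 104 to 109.7 CPM. Fits with the trend removed are given where they change a 2-MiCit call within a line. Other values that they change, and fits without these libraries, are given only in part.

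In untreated cells FOSL1 made up most of the Fos-family RNA per transcript length, except in HT29, whereas in CPM, which does not correct for length, FOSL2 was above FOSL1 in SW1417, SW948 and HT29. Levels below are control means ± SD over 4 libraries in CPM, scaled within each table, so values of the 2 tables stand side by side without a test. FOSL1 was at 300.2 ± 5.41 CPM in SK-CO-1, 211 ± 13.1 in HCT116, 103 ± 6.91 in DLD1, 81.6 ± 5.54 in LoVo, 79.5 ± 4.59 in SW1417, 45.1 ± 5.86 in SW948 and 17.2 ± 1.69 in HT29. Its order was thus SK-CO-1, SW1417, HT29 in the second table and HCT116, DLD1, LoVo, SW948 in the first, and no neighbours overlapped. FOSL2, a broadly expressed family member, ranged less, between 58.0 ± 9.41 CPM in DLD1 and 163 ± 2.77 in SW1417, with 80.8 in SW948 and 79.6 in LoVo. FOS, which carries a transactivation domain that FOSL1 and FOSL2 lack, was at 3.75 ± 0.879 to 5.33 ± 0.734 CPM in the first table and at 20.2 ± 3.54, 20.5 ± 2.55 and 37.6 ± 0.252 CPM in HT29, SW1417 and SK-CO-1. FOSB stayed between 0.531 ± 0.0898 CPM in SW1417 and 7.599 ± 0.622 in SK-CO-1.

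Per transcript length (CPM per kilobase, over the longest coding transcript of each gene), FOSL1 made up 90.9 ± 0.852% of the summed Fos-family RNA in HCT116 controls, 84.6 ± 1.54% in DLD1, 77.5 ± 0.808% in LoVo, 64.7 ± 4.20% in SW948, 81.6 ± 0.356% in SK-CO-1 and 58.4 ± 0.603% in SW1417. In HT29 controls FOSL2 held 44.8 ± 2.26%, FOSL1 27.2 ± 0.917% and FOS 24.6 ± 2.30%. Among Jun genes, JUND held the largest share in HCT116 (57.4 ± 1.16%), LoVo (48.7 ± 2.41%), SW948 (56.1 ± 2.02%) and HT29 (45.8 ± 1.09%). JUNB led in DLD1 (45.3 ± 3.504%) and SK-CO-1 (52.5 ± 0.580%), and in SW1417 JUND (37.8 ± 1.25%) and JUNB (36.8 ± 1.21%) were within their spread. JUN itself held 6.99 ± 0.659% in HCT116 and up to 32.7 ± 0.795% in HT29.

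**Figure D1:**
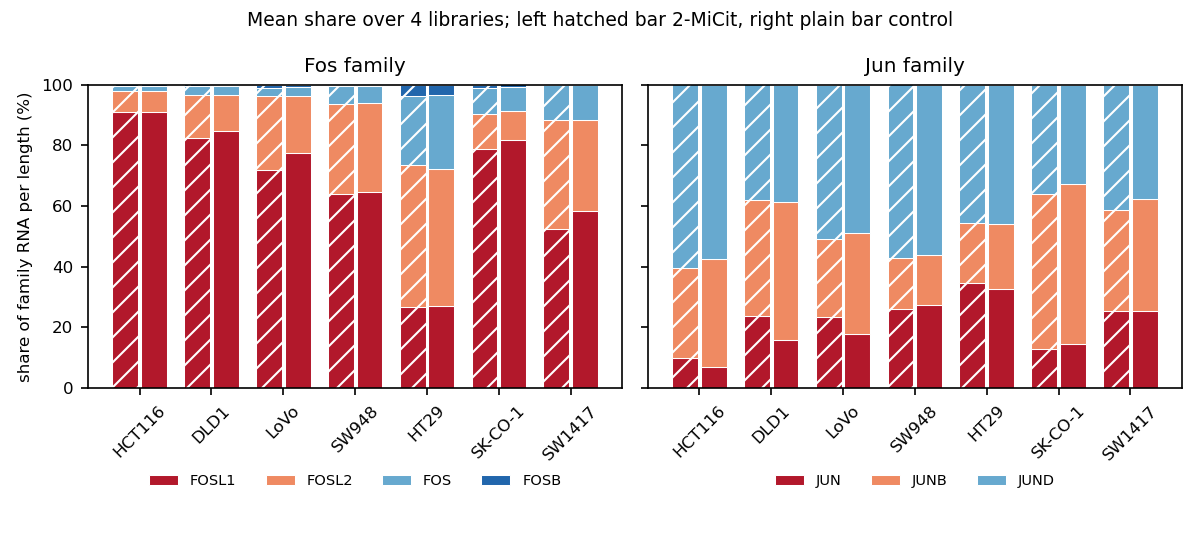
Share (%) of the summed Fos-family RNA (left) and Jun-family RNA (right) per transcript length held by each gene, as means over 4 libraries, with the hatched 2-MiCit bar left of the plain control bar in each line. FOSL1 fills most of the Fos-family bars except in HT29, and the JUN part is taller with 2-MiCit in HCT116, DLD1 and LoVo.

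JUN, the AP-1 subunit that JNK phosphorylates, spanned 21.5 ± 0.529 CPM in HCT116 to 230.0 ± 11.4 in HT29, with 39.7 ± 3.78 in LoVo, 49.2 ± 2.80 in DLD1, 56.4 ± 2.53 in SK-CO-1, 101 ± 2.81 in SW948 and 169 ± 8.47 in SW1417. JUNB, often a weaker activator than JUN, lay between 31.4 ± 6.33 CPM in SW948 and 126 ± 8.85 in SW1417, and JUND, the constitutively expressed Jun gene, between 57.4 ± 6.00 in LoVo and 169 ± 2.44 in HT29. EGR1, a zinc finger factor, spanned 13.0 ± 0.450 CPM in SW1417 to 105 ± 3.51 in SK-CO-1. IER2, a nuclear protein of the immediate early class, ranged from 74.3 ± 3.55 in SW1417 to 133 ± 2.35 in SK-CO-1. IER3, a stress-induced survival factor, was in the second table alone, at 0 in 20 of 24 libraries, where a count of 0 allows up to 0.066 to 0.103 CPM (3 counts of a library's total, counting error only).

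The IER3 values were 1.46 CPM in 1 of 4 2-MiCit libraries and 0.686 CPM in 1 of 4 control libraries of SK-CO-1, 0.453 CPM in 1 of 4 2-MiCit libraries of SW1417, and 0.104 CPM in 1 of 4 control libraries of HT29. The gene lies in the MHC region of chromosome 6 (30743199 to 30744554, minus strand, GRCh38), whose alternate-haplotype copies can take its reads, so these values are uncertain. It did not pass the filter on low counts, and in HCT116, DLD1, LoVo and SW948 it was not analysed here. The other 9 genes passed in every line, and what follows is about them.

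Neighbours in the order of control levels were compared with edgeR's quasi-likelihood test, Benjamini-Hochberg adjusted over all genes. Among the 4 lines of the first table, 14 of 27 neighbouring pairs differed. Between these lines the background is high: 62.9% of all genes differed between HCT116 and DLD1, 67.4% between HCT116 and LoVo, 73.8% between HCT116 and SW948, 66.5% between DLD1 and LoVo, 70.3% between DLD1 and SW948, and 68.7% between LoVo and SW948. All 3 neighbouring steps of FOSL1 and of JUN passed. FOS showed no step that passed, with adjusted p values of 0.773, 0.722 and 0.202. HCT116 had the highest FOSL1 mean and the lowest JUN mean, and SW948 the reverse, whereas DLD1 was above LoVo for both FOSL1 (1.26-fold) and JUN (1.24-fold).

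Among the 3 lines of the second table, 16 of 18 steps passed. Over all genes, again for fixed pairs of lines and not neighbours, it was 84.1% between HT29 and SK-CO-1, 82.8% between HT29 and SW1417 and 84.3% between SK-CO-1 and SW1417. The steps that missed were FOS between SW1417 and HT29 (adjusted p = 0.779, edgeR) and IER2 between HT29 and SW1417 (adjusted p = 0.792). FOSL1 was 3.79-fold higher in SK-CO-1 than in SW1417, and 4.68-fold higher in SW1417 than in HT29. JUN was 1.34-fold higher in HT29 than in SW1417, and 2.99-fold higher in SW1417 than in SK-CO-1. FOSB was 8.95-fold higher in HT29 than in SW1417, the widest step of any of the 9 genes in either table.

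The spread between libraries of one group also differed among the genes. The coefficient of variation of EGR1 exceeded the median of genes of like level (within 2-fold of its mean) in 13 of 14 groups, that of JUNB in 14, of JUND in 12 and of FOS in 10, against 5 of 14 for FOSB. For EGR1 it ranged from 3.34% to 61.2%, and for JUN from 2.46% to 13.3%. The 61.2% belongs to LoVo controls, where EGR1 was at 33.2, 16.4, 10.1 and 10.8 CPM.

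Genes were also compared by the likeness of their 2-MiCit log2 changes over the 7 lines, as Pearson's r over 11319 genes tested in all of them. These values describe 7 points that come from 2 tables. The nearest other member of FOS was FOSL1 (r = 0.94), that of JUN was JUND (r = 0.93), that of FOSL2 was JUN (r = 0.84) and that of EGR1 was FOSL1 (r = 0.77), while FOSB had no near neighbour (r = 0.34 with IER2). The most alike of all genes were UBAP1, SLC20A1 and RND3 for FOS (r = 0.99, 0.99 and 0.99), PLEKHM2, ZNF319 and AJUBA for JUN (r = 0.99, 0.98 and 0.98), and SNX22, ITPKC and PIM1 for EGR1 (r = 0.97, 0.94 and 0.94). As the highest of 11319 values over 7 points, these r were picked for their size and do not show a shared response. FOS itself was called in 1 of 7 lines.

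With 2-MiCit, JUN rose in HCT116, DLD1 and LoVo by 1.45- to 1.79-fold, and FOSL1 and EGR1 fell in SK-CO-1 and SW1417, where other members also passed the test, lower except for JUND in SK-CO-1. Of 63 tests (9 genes in 7 lines), 12 passed an adjusted p of 0.05 in edgeR's quasi-likelihood test with Benjamini-Hochberg adjustment over all genes of the line, 4 of them higher and 8 lower. In HCT116, 1 of 9 passed, against 37% of all genes tested there (19% higher, 18% lower). In DLD1 it was 1 of 9, against 0.148% of all genes, all of them higher. In LoVo it was 1 of 9, against 2.3% of all genes (1.59% higher, 0.702% lower).

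In SW948 none of 9 passed, as was the case for all 13334 genes tested in that line (0%), of which 888 had an unadjusted p under 0.05. In HT29 none of 9 passed, against 7.67% of all genes (4.65% higher, 3.02% lower), and 3 members had an unadjusted p under 0.05, as did 3360 of 13887 genes. In SK-CO-1, 5 of 9 were lower and 1 higher, against 10.8% lower and 8.1% higher over all genes (18.9% in either direction). In SW1417, 3 of 9 were lower and none higher, against 4.05% and 2.94% (6.98% in either direction). The difference between these shares and the background was not tested. The count in HCT116 was 3 of 9 with the length trend removed, a setting in which the share of all genes was not counted.

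**Figure D2:**
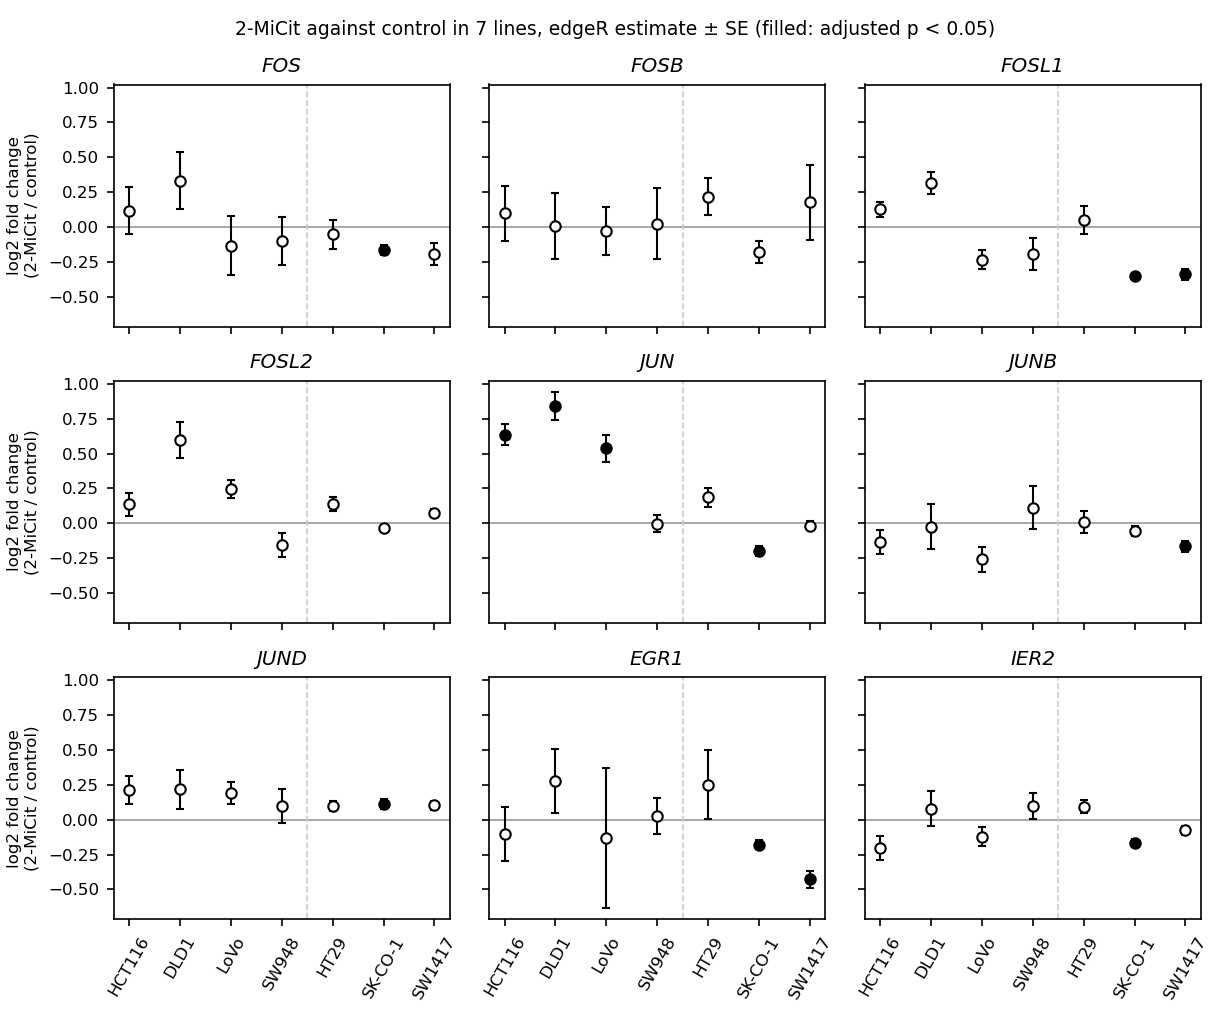
Log2 fold change (2-MiCit over control) ± SE of 9 members in each line, with filled points where the adjusted p is under 0.05 and a dashed line between the 2 tables. JUN lies between 0.54 and 0.84 in HCT116, DLD1 and LoVo and at -0.20 in SK-CO-1, FOSL1 is at -0.35 and -0.34 in SK-CO-1 and SW1417, and JUND is above 0 in all 7 lines.

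JUN was measured at 35.0, 36.2, 35.2 and 29.6 CPM in 2-MiCit HCT116 cells, against 21.9, 20.9, 21.3 and 22.1 CPM in control HCT116 cells. Every treated library was above every control, and it was the member whose groups did not overlap in this direction in HCT116, where 20% of all genes did so and 15.4% in the other direction. The change was 1.56-fold (1.41 to 1.72 as the estimate ± 1.96 SE; adjusted p = 0.000162, edgeR), with a log2 change of 0.64 ± 0.07 (SE). In DLD1 it was at 105, 87.0, 83.9 and 77.2 CPM with 2-MiCit, against 45.8, 48.4, 50.1 and 52.4 CPM in controls. These groups did not overlap either, and the change of 1.79-fold (1.56 to 2.06; adjusted p = 0.0194, edgeR) was the steepest rise of any member in any line. In LoVo the values were 68.3, 59.1, 51.2 and 54.3 CPM with 2-MiCit, against 44.5, 38.7, 35.4 and 40.3 CPM in controls. The lowest treated library was again above the highest control, at 1.45-fold (1.27 to 1.66; adjusted p = 0.0229, edgeR).

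The call in HCT116 held without any 1 library. In DLD1 it was lost without any of 5 libraries (adjusted p up to 0.109, log2 change 0.83 to 0.87) and held without control replicate 1 (adjusted p = 0.00475), and in LoVo it was lost without any of 5 libraries (adjusted p up to 0.106, log2 change 0.45 to 0.57). With the length trend removed the call held in each of these 3 lines (adjusted p = 5.76e-05 in HCT116, 0.00534 in DLD1 and 0.0138 in LoVo, edgeR).

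In none of the other lines was JUN called higher. In SW948 JUN was at 107, 98.9, 98.7 and 98.8 CPM with 2-MiCit, against 104, 99.1, 102 and 98.1 CPM in controls, a ratio of 0.999 (0.923 to 1.08; adjusted p = 0.992, edgeR). HT29, the line with the highest JUN level, had 278, 224, 279.8 and 263 CPM with 2-MiCit, against 242, 236, 226 and 216 CPM in controls. The treated replicate 2 fell within the controls, and the ratio of 1.14 (1.04 to 1.25) did not pass (adjusted p = 0.124, edgeR). SK-CO-1 had 47.1, 48.9, 48.6 and 51.0 CPM with 2-MiCit, against 56.6, 52.9, 59.0 and 56.9 CPM in controls. Here every treated library was below every control, and JUN fell to 0.873 times the control level (0.831 to 0.917; adjusted p = 0.0017, edgeR). SW1417 showed 171, 171, 162 and 166 CPM with 2-MiCit and 179, 174, 162 and 163 CPM in controls, which overlap. In a bulk lysate, fewer cells holding an RNA and less of it per cell cannot be told apart.

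**Figure D3:**
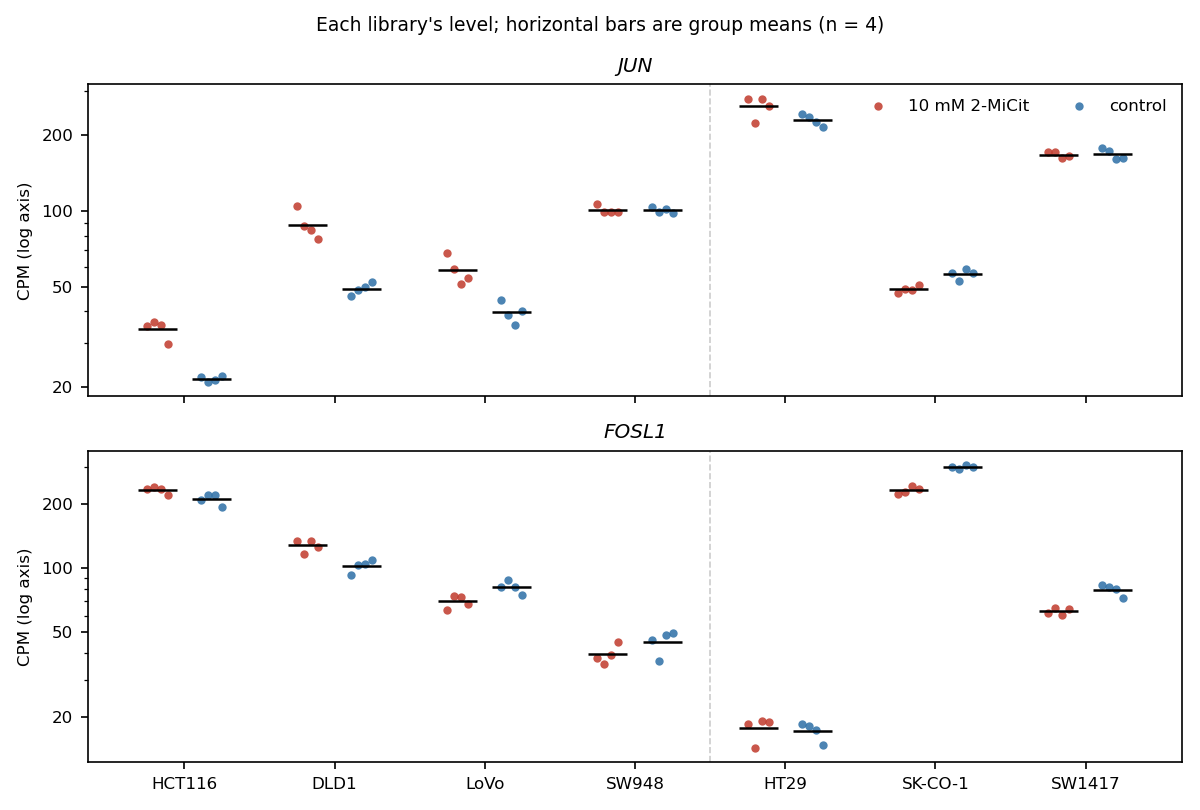
CPM (log axis) of JUN and FOSL1 in every library, with 2-MiCit (red) left of control (blue) in each line, bars at group means of 4 libraries and a dashed line between the 2 tables. The treated JUN libraries lie above the controls in HCT116, DLD1 and LoVo and below them in SK-CO-1, and the treated FOSL1 libraries lie below the controls in LoVo, SK-CO-1 and SW1417.

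FOSL1 was at 225, 229, 243 and 237 CPM in 2-MiCit SK-CO-1 cells, against 299, 294, 307 and 300.4 CPM in control SK-CO-1 cells. All treated libraries were below all controls, as for 5 of the 9 members in this line, where 13.6% of all genes did so and 9.17% lay the other way. FOSL1 fell to 0.782 times the control level (0.756 to 0.81; adjusted p = 1.00e-06, edgeR). In SW1417 it was at 61.5, 65.5, 60.6 and 64.2 CPM with 2-MiCit, against 83.4, 81.9, 79.7 and 73.0 CPM in controls. Here too no libraries overlapped, as for 2 members below and 1 above the controls in SW1417 (6.64% and 7.23% of all genes), and FOSL1 fell to 0.79 times the control level (0.749 to 0.833; adjusted p = 0.000132, edgeR). Both calls held in all 9 other settings and without any 1 library.

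FOSL1 values elsewhere did not pass. In DLD1 it was at 134, 117, 134 and 127 CPM with 2-MiCit, against 93.4, 104, 105 and 109.7 CPM in controls. The groups did not overlap, as for 3 members above the controls in DLD1 (7.53% of all genes, and 6.29% below), but the adjusted p was 0.196 (log2 change 0.31 ± 0.08, edgeR). With the length trend removed the log2 change of FOSL1 in DLD1 was 0.45 (adjusted p = 0.117, edgeR). In LoVo the treated libraries, at 64.0, 74.4, 73.5 and 68.1 CPM, all lay below the controls at 81.9, 88.3, 81.4 and 74.8 CPM. LoVo had 2 members below and 2 above in this way (5.37% and 7.93% of all genes), and the log2 change of FOSL1 was -0.23 ± 0.07 (adjusted p = 0.0892, edgeR). The log2 changes were 0.13 ± 0.06 in HCT116 (0.21 and called with the length trend removed, adjusted p = 0.00468, edgeR), -0.20 ± 0.11 in SW948 and 0.05 ± 0.10 in HT29, and no member's groups were apart in SW948 (2.85% of all genes above, 2.22% below) or HT29 (8.76% above, 7.58% below).

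FOSL2 passed in no line, and with the length trend removed it passed in DLD1 and LoVo (log2 change 0.46 and 0.19, adjusted p = 0.0248 and 0.0361, edgeR). Its values in DLD1 were 100.05, 88.1, 80.4 and 82.5 CPM with 2-MiCit, against 44.3, 60.2, 65.6 and 61.8 CPM in controls. The lowest control was replicate 1, and the log2 change was 0.60 ± 0.13 (adjusted p = 0.143, edgeR). In LoVo the treated libraries at 91.3 to 99.6 CPM lay above the controls at 69.9 to 85.3 CPM (log2 change 0.25 ± 0.06, adjusted p = 0.0663, edgeR), and in SW1417 those at 167.1 to 176 CPM lay above 160.2 to 166.8 CPM (log2 change 0.08 ± 0.02, adjusted p = 0.0669). As a share of Fos-family RNA per length, FOSL1 was at 52.4 ± 1.10% with 2-MiCit and 58.4 ± 0.603% in controls of SW1417, 78.8 ± 0.367% and 81.6 ± 0.356% in SK-CO-1, and 71.8 ± 2.27% and 77.5 ± 0.808% in LoVo. The share of FOSL2 was 35.8 ± 0.937% with 2-MiCit and 29.8 ± 1.26% in controls of SW1417, 11.6 ± 0.228% and 9.57 ± 0.234% in SK-CO-1, and 24.4 ± 1.499% and 18.8 ± 0.518% in LoVo. Shares are parts of the same sum, so a fall of FOSL1 by itself raises that of FOSL2. In SK-CO-1 FOSL2 itself was not higher, at 138 CPM with 2-MiCit and 142 CPM in controls (log2 change -0.03 ± 0.02, adjusted p = 0.38, edgeR).

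FOS passed in SK-CO-1, where the treated libraries were at 31.2, 32.6, 34.2 and 35.2 CPM and the controls at 38.0, 37.5, 37.7 and 37.4 CPM. The groups did not overlap, and FOS fell to 0.89 times the control level (0.846 to 0.937; adjusted p = 0.00583, edgeR). With the authors' deposited scaling the adjusted p was 0.147 and with 1 fit over all lines of the table it was 0.212. In SW1417 FOS was at 18.5, 19.2, 17.3 and 17.1 CPM with 2-MiCit and 21.9, 22.8, 20.3 and 17.0 CPM in controls, with control replicate 4 inside the treated range (log2 change -0.19 ± 0.08, adjusted p = 0.188, edgeR). In the other 5 lines its groups overlapped, with log2 changes of -0.13 ± 0.21 in LoVo to 0.33 ± 0.21 in DLD1. FOSB, with at most 8.396 CPM in any library, passed in no line, and its log2 changes lay between -0.18 ± 0.08 in SK-CO-1 and 0.22 ± 0.13 in HT29.

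JUNB passed in SW1417 and JUND in SK-CO-1. JUNB was at 114, 112, 116 and 109 CPM in 2-MiCit SW1417 cells, against 133, 133, 126 and 114 CPM in control SW1417 cells. The highest treated library exceeded the lowest control, and JUNB fell to 0.891 times the control level (0.841 to 0.944; adjusted p = 0.0406, edgeR). That call was lost without any of 7 of the 8 libraries (adjusted p up to 0.119). In LoVo, treated libraries at 28.7 to 35.6 CPM lay below controls at 36.1 to 43.9 CPM (log2 change -0.26 ± 0.09, adjusted p = 0.129, edgeR). In DLD1 the log2 change was -0.02 ± 0.16, and 0.17 without control replicate 1. JUND was at 68.5, 71.4, 74.0 and 73.7 CPM with 2-MiCit and 67.2, 62.7, 68.4 and 69.5 CPM in controls of SK-CO-1, where it rose 1.08-fold (1.03 to 1.13; adjusted p = 0.0366, edgeR). The groups overlap, and the call held in only 3 of 8 fits without 1 library (adjusted p up to 0.0985, edgeR). It was also lost with the authors' deposited scaling (adjusted p = 0.274) and in 1 fit over all lines of the table (0.0953). Its log2 change was positive in 7 of 7 lines, between 0.10 and 0.22, but in SW948 it was 0.012 without 2-MiCit replicate 2 and 0.0061 with the length trend removed. That removal also made JUND a call in HCT116 and LoVo (log2 change 0.28 and 0.24, adjusted p = 0.00971 and 0.0365, edgeR).

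Set against the rest of the Jun family, JUN held 9.87 ± 0.538% of Jun-family RNA per length with 2-MiCit and 6.99 ± 0.659% in controls of HCT116, 23.8 ± 3.30% and 16.0 ± 3.00% in DLD1, and 23.6 ± 2.51% and 17.9 ± 2.16% in LoVo. JUNB held 29.7 ± 1.16% with 2-MiCit and 35.6 ± 0.819% in controls of HCT116, 38.1 ± 1.18% and 45.3 ± 3.504% in DLD1, and 25.5 ± 2.07% and 33.4 ± 0.719% in LoVo. In SK-CO-1 JUN held 12.9 ± 0.316% with 2-MiCit and 14.6 ± 0.214% in controls. The DLD1 control shares include replicate 1, the library with the steepest length trend. It had the lowest JUN of its group (45.8 CPM) and JUNB at 102 CPM, against 63.5 to 65.5 CPM in the other controls. Shares were not corrected for the trend or taken without that library.

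EGR1 was at 10.5, 9.56, 8.78 and 9.94 CPM in 2-MiCit SW1417 cells, against 13.2, 13.5, 12.5 and 12.8 CPM in control SW1417 cells. No library overlapped, and EGR1 fell to 0.743 times the control level (0.682 to 0.809; adjusted p = 0.000959, edgeR), the steepest decline of any member in any line. In SK-CO-1 it was at 87.9, 93.9, 89.2 and 97.6 CPM with 2-MiCit, against 103, 103, 104 and 110.0 CPM in controls. These also did not overlap, at 0.884 times the control level (0.845 to 0.924; adjusted p = 0.00164, edgeR). In 1 fit over all lines of the table, which shares 1 estimate of the spread with HT29, the adjusted p was 0.249 in SW1417 and 0.459 in SK-CO-1. Both calls held without any 1 library.

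In HT29, LoVo and DLD1, EGR1 varied widely between libraries of one group. HT29 had 35.9, 34.8, 34.6 and 29.03 CPM with 2-MiCit and 33.6, 39.5, 20.4 and 19.5 CPM in controls, whose range spans the treated libraries. LoVo had 27.4, 16.2, 10.2 and 11.4 CPM with 2-MiCit and 33.2, 16.4, 10.1 and 10.8 CPM in controls. The library numbered 1 was highest in both LoVo groups, and the ratio of 0.913 had an interval of 0.46 to 1.81. DLD1 had 120.4, 69.2, 62.2 and 59.4 CPM with 2-MiCit and 80.1, 54.6, 59.0 and 63.5 CPM in controls; replicate 1 was again highest in both, and without the treated one the log2 change was -0.02, against 0.27 ± 0.23 with it.

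In HCT116 EGR1 was at 55.8, 38.4, 29.9 and 30.1 CPM with 2-MiCit, against 45.9, 38.1, 39.8 and 40.1 CPM in controls. Treated replicate 1 was above every control and replicates 3 and 4 were below, and the log2 change was -0.10 ± 0.20 (adjusted p = 0.723, edgeR). Without treated replicate 1 it was -0.34 and passed (adjusted p = 0.0363, edgeR). SW948 varied less, at 14.4 to 21.8 CPM with 2-MiCit and 16.6 to 21.3 CPM in controls (log2 change 0.02 ± 0.13).

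**Figure D4:**
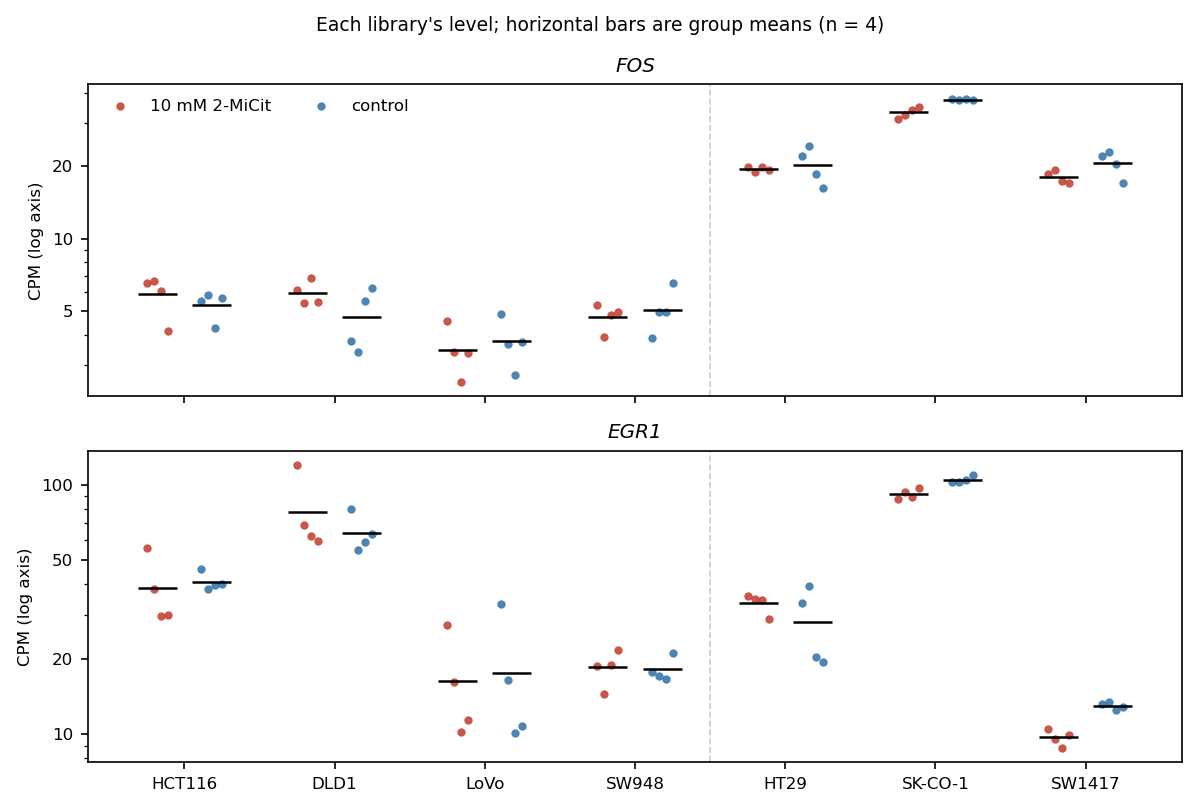
CPM (log axis) of FOS and EGR1 in every library, with 2-MiCit (red) left of control (blue) in each line, bars at group means of 4 libraries and a dashed line between the 2 tables. Treated and control libraries separate in SK-CO-1 for both genes and in SW1417 for EGR1, and single EGR1 libraries reach 120.4 CPM in 2-MiCit DLD1 and 33.2 CPM in control LoVo.

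IER2 was at 113, 119, 122 and 117 CPM in 2-MiCit SK-CO-1 cells, against 136, 132, 133 and 130.4 CPM in control SK-CO-1 cells. The groups did not overlap, and IER2 fell to 0.892 times the control level (0.862 to 0.923; adjusted p = 0.000458, edgeR). In SW1417 it was at 68.8 to 71.9 CPM with 2-MiCit and 69.1 to 77.2 CPM in controls, with the lowest control inside the treated range (adjusted p = 0.187, edgeR). In HCT116 it was at 88.3 to 112 CPM with 2-MiCit and 103 to 129 CPM in controls (log2 change -0.20 ± 0.09, adjusted p = 0.0886). The remaining lines had log2 changes between -0.12 ± 0.07 in LoVo and 0.10 ± 0.09 in SW948.

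The lines were compared in their response to 2-MiCit by an interaction term in 1 edgeR fit per table. In the first, JUN (adjusted p = 8.95e-05), FOSL1 (0.00248) and FOSL2 (0.00345) passed, 3 of 9, against 18% of all genes. The difference of log2 changes of JUN was 0.66 ± 0.12 for HCT116 minus SW948 (adjusted p = 0.000388, edgeR) and 0.84 ± 0.12 for DLD1 minus SW948 (adjusted p = 0.000511). FOSL1 differed by 0.54 ± 0.12 for DLD1 minus LoVo (adjusted p = 0.0273, edgeR), where 0.506% of all genes passed, by 0.51 ± 0.12 for DLD1 minus SW948 and by 0.34 ± 0.12 for HCT116 minus SW948. FOSL2 differed by 0.75 ± 0.14 for DLD1 minus SW948. The share of all genes that passed was 18.7% for HCT116 minus SW948 and 13.2% for DLD1 minus SW948. No member passed for HCT116 minus DLD1, HCT116 minus LoVo or LoVo minus SW948, where 8.34%, 6.04% and 0.038% of all genes did.

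In the second table JUN (adjusted p = 0.0114, edgeR), IER2 (0.0115) and FOSL1 (0.0192) passed, 3 of 9, against 5.49% of all genes. For HT29 minus SK-CO-1, where 4.14% of all genes passed, the differences were 0.39 ± 0.08 for JUN, 0.41 ± 0.09 for FOSL1, 0.26 ± 0.05 for IER2 and 0.18 ± 0.05 for FOSL2 (adjusted p = 0.00573, 0.0148, 0.00591 and 0.0482, edgeR). For HT29 minus SW1417 FOSL1 passed (0.38 ± 0.10, adjusted p = 0.028, edgeR), against 3.44% of all genes. For SK-CO-1 minus SW1417 no member passed, against 1.03% of all genes. The FOSL1 interaction here was lost without HT29 2-MiCit replicate 3 or 4 (adjusted p = 0.0542 and 0.0532). HT29 2-MiCit replicate 2, the lowest FOSL1 library of its group, was at 14.3 CPM. No test between HCT116, DLD1 or LoVo and SK-CO-1 was made, since they belong to separate batches and their tables were quantified and scaled separately.

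Among genes known as AP-1 targets, those called were lower in SK-CO-1 and SW1417 and higher in HCT116. Of the 18 listed, 14 were tested in SK-CO-1, with 10 lower (10.8% of all genes), none higher (8.1%) and 3 with a positive log2 change. In SW1417, 13 were tested, with 7 lower (4.05% of all genes), none higher (2.94%) and 3 with a positive log2 change. In HCT116 11 were tested, with 5 higher (19% of all genes) and none lower (18%). The median log2 change of the list was -0.18 in SK-CO-1, -0.12 in SW1417 and 0.13 in HCT116, where that of all genes was 0.01, 0.00 and 0.03. DLD1 and HT29 each had 1 higher and none lower, and LoVo and SW948 had none. CD68, a gene of the leukocyte marker list, was also called lower in SK-CO-1, SW1417 and HCT116. The summed leukocyte markers were at 21.5 to 23.0 CPM with 2-MiCit and 23.5 to 26.2 CPM in controls of SK-CO-1, and 9.97 to 11.5 and 14.6 to 16.5 CPM in SW1417. CD68 alone averaged 5.47 CPM with 2-MiCit and 7.55 CPM in controls of HCT116. The samples are cell lines, so these values do not show that leukocytes were present. What they mean for the other results was not tested.

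PLAU, the urokinase protease, averaged 118 CPM with 2-MiCit and 58.2 CPM in controls of HCT116 (log2 change 1.00, adjusted p = 4.80e-06, edgeR), and fell in SK-CO-1 (-0.17) and SW1417 (-0.20). VEGFA, the angiogenic growth factor, rose in HCT116 (0.39) and DLD1 (0.86) and fell in SW1417 (-0.19).

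Of the other immediate early and delayed early genes, those called were higher in HCT116, DLD1 and HT29 and mostly lower in SK-CO-1 and SW1417. Of 28 tested in HCT116, 9 were higher (19% of all genes) and none lower (18%). In DLD1 2 of 30 were higher (0.148% of all genes) and none lower, and in HT29 2 of 28 were higher, a count near the 4.65% of all genes, and none lower (3.02%). In SK-CO-1, 3 of 30 were higher (8.1% of all genes) and 9 lower (10.8%), and in SW1417 2 of 27 were higher (2.94%) and 6 lower (4.05%). LoVo and SW948 had none. The median log2 change was 0.12 in HCT116, 0.22 in DLD1, 0.10 in HT29, -0.08 in SK-CO-1 and -0.08 in SW1417. BTG2, an antiproliferative p53 target, rose in HCT116 (log2 change 0.87), HT29 (0.54), SK-CO-1 (0.43) and SW1417 (0.13). CCN1 and CCN2, secreted matricellular proteins, rose in HCT116 (0.26 and 0.87) and fell in SK-CO-1 (-0.43 and -0.21). CCN1 also rose in DLD1 (0.96) and CCN2 in HT29 (0.71). PPP1R15A, the stress-induced phosphatase subunit GADD34, rose in DLD1 (0.87) and HCT116 (0.26) and fell in SK-CO-1 (-0.20).

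Of the other AP-1 partners and small bZIP factors, 5 of 9 were higher and 2 lower in HCT116 (19% and 18% of all genes), 1 of 9 higher in DLD1 (0.148%), 3 of 9 higher and 1 lower in SK-CO-1 (8.1% and 10.8%), and 1 of 9 lower in HT29 (3.02%). ATF3, a stress-induced partner of JUN, averaged 65.6 CPM with 2-MiCit and 19.39 CPM in controls of DLD1 (log2 change 1.76, adjusted p = 0.000324, edgeR), and 36.9 and 20.9 CPM in HCT116 (0.80). ATF2 rose in HCT116 (0.30) and SK-CO-1 (0.11), ATF7 rose in HCT116 (0.36) and fell in HT29 (-0.16), and MAFK fell in HCT116 (-0.33) and SK-CO-1 (-0.11). Of the 14 upstream kinases and ternary complex factors tested, 1 was higher and 3 lower in HCT116, 4 in all against 37% of all genes, 1 was higher and 1 lower in SK-CO-1 (18.9% of all genes in either direction) and 1 lower in SW1417 (4.05% lower). MAP2K1, the ERK kinase MEK1, fell in HCT116 (-0.16) and SW1417 (-0.12), and MAP2K4, a JNK kinase, fell in HCT116 (-0.32). In SK-CO-1 MAPK14, the p38 kinase, rose (0.12) and ELK3 fell (-0.14).

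**Figure D5:**
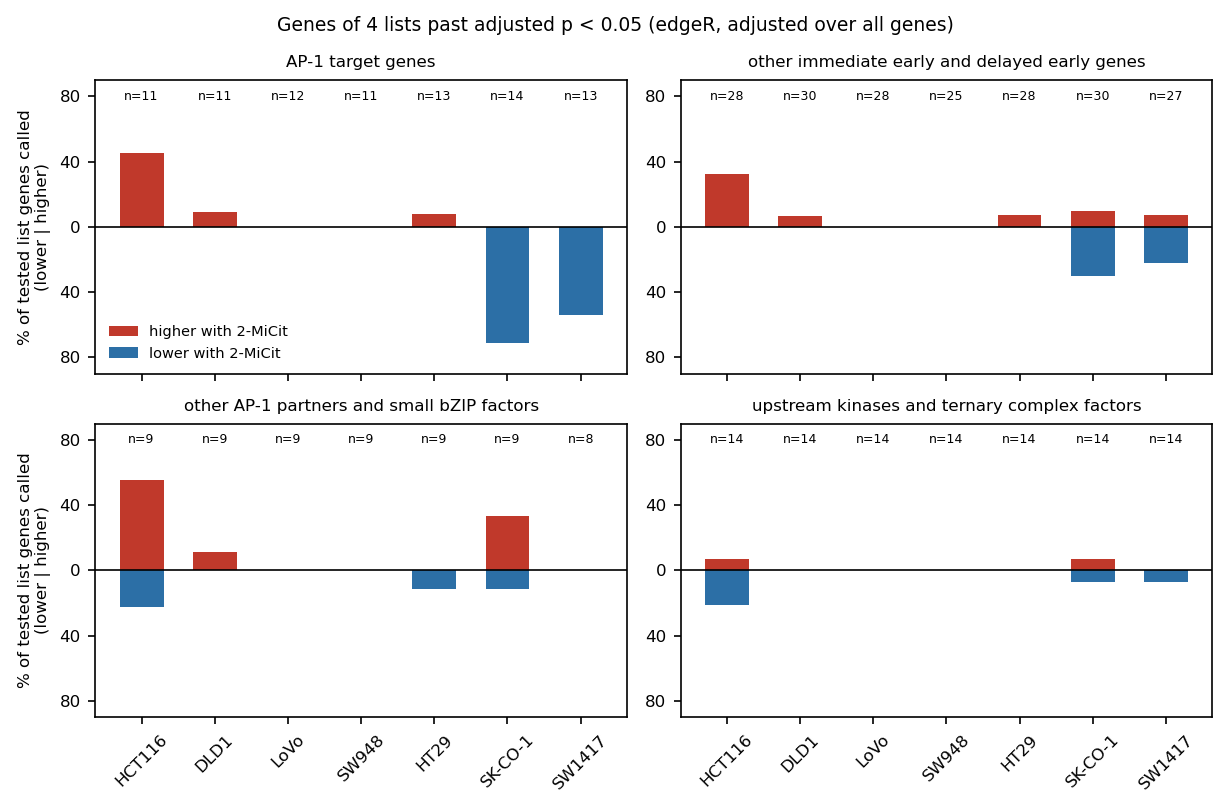
Percent of the tested genes of each list that passed an adjusted p of 0.05 with 2-MiCit, higher (red, upward) and lower (blue, downward) in each line, with the number tested above each bar. AP-1 target genes have 10 of 14 lower in SK-CO-1 and 7 of 13 in SW1417, against 5 of 11 higher in HCT116.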

How the data were processed

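RNA was sequenced from 56 libraries. Total RNA was made into stranded mRNA libraries, per the labels' protocols, and bcl2fastq 2.20.0, Trimmomatic 0.39, Salmon 1.5.0, DESeq2 and the GRCh38.p13 build are named in the submitters' processing notes. The authors deposited estimated counts per gene as whole numbers in 2 tables. They also deposited normalized counts, a signal on a linear scale, which was used here only as an alternative scaling. Salmon shares reads between near-identical transcripts, so genes with copies are uncertain. Symbols came from an Ensembl name table (15345 of 16485 identifiers in the first table, 15292 of 16454 in the second), and coordinates and lengths from GENCODE release 29.

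Counts were filtered with filterByExpr, scaled by TMM and tested with edgeR 4.0.16 (R 4.3.3) by the quasi-likelihood test, in a fit of the 8 libraries of each line, with Benjamini-Hochberg adjustment over the 13334 to 14651 genes tested. Interactions and control levels were fitted within each table. SE is the log2 change over the root of F. The per-line, interaction and control-level fits were tested on simulated counts. Alternatives were DESeq2 1.42.0, other scalings and filters, 1 fit per table, removal of the length trend, a replicate block and leaving out each library. The members and lists were chosen with earlier results of these data known, and the AP-1 target and early gene lists come from textbook knowledge. The other genes named were the 4 of each list called in most lines, ties broken by p; some of them are not reported here. No libraries were duplicates: chi-square per gene between libraries of a group was 4.12 to 84.0 over 84 pairs.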

Additional observations from a re-analysis of the deposited data

Results flagged for a closer look

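Of 126 groups of 4 libraries (9 members in 14 groups), 9 (7.14%) had a library far from the other 3, where chance gives about 1 in 20. The gap to the nearest library, as a share of the group's range, was 0.843 for FOSL1 in HT29 2-MiCit replicate 2 (14.3 CPM, the others 18.5 to 19.3) and 0.974 for JUN in SW948 2-MiCit replicate 1 (107 CPM, the others 98.7 to 98.9). It was 0.947 for JUNB and 0.918 for IER2 in DLD1 control replicate 1, the library with the steepest length trend, and 0.871 for JUND in DLD1 2-MiCit replicate 3 (92.2 CPM, the others 67.7 to 70.8). In DLD1 2-MiCit replicate 1, EGR1 had a gap of 0.839 (120.4 CPM, the others 59.4 to 69.2). The remaining gaps were 0.871 for JUNB in LoVo control replicate 4 (43.9 CPM, the others 36.1 to 37.1), 0.985 for JUND in SW1417 control replicate 2 (139 CPM, the others 130.4 to 131) and 0.975 for IER2 in HT29 control replicate 2 (79.0 CPM, the others 73.1 to 73.2).

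The effect of 2-MiCit differed between lines for 6 gene and table pairs, by edgeR's interaction test adjusted over all genes. In HCT116, DLD1, LoVo and SW948 the adjusted p was 8.95e-05 for JUN, 0.00248 for FOSL1 and 0.00345 for FOSL2. In HT29, SK-CO-1 and SW1417 it was 0.0114 for JUN, 0.0115 for IER2 and 0.0192 for FOSL1.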

How the results depend on the processing

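The number of members called with 2-MiCit depended on the setting in most lines. With 1 fit over all lines of a table it was 3 in DLD1, 2 in HT29, 3 in SK-CO-1 and 1 in SW1417. DESeq2's Wald test called 3 in DLD1, 2 in HCT116 and 3 in LoVo. With the length trend removed it was 2 in DLD1, 3 in HCT116 and 3 in LoVo, and with the stricter filter 2 in LoVo. The replicate block gave 0 in DLD1, 5 in HCT116 and 5 in SW1417, and together with removal of the length trend 0 in DLD1, 4 in HCT116, 1 in HT29 and 3 in LoVo. Leaving out each library gave 0 to 2 in DLD1, 1 to 3 in HCT116, 0 to 3 in HT29, 0 to 3 in LoVo, 5 to 6 in SK-CO-1, 2 to 5 in SW1417 and 0 in SW948. It also gave 3 to 4 members with an interaction in the first table and 2 to 4 in the second, and 12 to 15 control neighbour pairs in the first and 16 in the second. The share of all genes called was not counted in any of these settings, so none of these counts has a background. The cause was not tested. No called log2 change turned its sign under any alternative. JUN in HCT116 and SK-CO-1, IER2 in SK-CO-1, and FOSL1 in SK-CO-1 and SW1417 passed in all 9 other settings and without any 1 library. Over all genes, replicate numbers did not consistently pair the libraries. Same-numbered libraries correlated between -0.32 and 0.28, and 22 of 56 libraries correlated best with their own number. In HCT116, 7 of 8 did, with same-number correlations of 0.28, 0.084, 0.12 and 0.21, a hint from the data and not the design, and there the block raised the members called to 5. Single members can still follow the numbers: EGR1 was highest in replicate 1 of both groups in HCT116, DLD1 and LoVo. With the block JUN in DLD1 had an adjusted p of 0.544, or 0.163 with the length trend also removed, and the FOSL1 interaction between HT29, SK-CO-1 and SW1417 one of 0.0546. FOS, at 3.75 to 5.33 CPM in controls of the first table, and FOSB have the largest counting error.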
